A study of Rattus norvegicus with 28 samples.

Results

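The comparison described here is that of the rat spinal cord 1 week after a contusion with the cord of sham animals. Its members were chosen from the sample labels alone, as the 4 samples named injured, 1 week (T1) and the 4 samples named sham (T0), 8 of the 28 samples in the series. All rats were adult female Sprague Dawley animals. The T1 animals underwent a laminectomy and a severe contusion of 250 kdyn at thoracic level 8 with an impactor, and were sacrificed 1 week later. The sample labels name the T0 group sham and the study's text names it uninjured, and neither says whether a laminectomy was performed in it. Animals sacrificed 2, 4 and 8 weeks after the same injury (T2, T4 and T8, 4 samples each) served as later times for comparison. The name of the T8 group is a time and not a cord level. The remaining 8 samples came from animals with cell transplants. Morphine, isoflurane, an antibiotic, buprenorphine and the immunosuppressant FK-506 are given as care for the operated animals, the last from the day before a transplantation, and according to the methods the injured controls received injections of medium without cells. The sources used here do not say in which of the T1 animals these were given. The tissue was a 1.5 cm segment of cord with the injury epicentre and without the dura mater, so that injured and spared tissue were measured together.

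A contusion kills neurons and glia at once, breaks the barrier between blood and cord and tears axons from their myelin. In the days that follow, blood-borne monocytes and resident microglia gather in the lesion and take up the debris, much of it cholesterol-rich myelin, while astrocytes, fibroblasts and pericytes around it divide and lay down a scar. The first week is the subacute stage, when phagocytes, cell division and new matrix are at or near their height in rodents and before Schwann cells from the nerve roots have populated the lesion.

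Expression was measured on single-colour microarrays, where a spot glows brighter the more of its matching RNA the tissue held. Values are quantile normalized log2 levels, so that a log2 difference of 1 stands for a 2-fold change, and levels of different genes are not compared with each other because each probe binds with its own strength. Probes were averaged by gene name to 35469 features, of which 26991 were well above background on all T0 or all T1 arrays. The share of spots well above background was 77.35% to 78.67% on the T0 arrays and 78.96% to 81.9% on the T1 arrays. The tissue carried its defining markers, and 14 of 14 neuronal, 14 of 14 oligodendrocyte and 11 of 11 astrocyte markers were well above background on all arrays of T0 or of T1.

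The deposited files do not settle the sample of 16 of the 28 arrays. There, the probes of a sample's column in the value table are ranked as in the scanner output filed under a different sample, and the 16 include T0 samples 2 and 4 and T1 samples 2, 3 and 4. With the value table, which is used here, 15657 features differed between T1 and T0, whereas 0 differed when each scanner output was kept under the sample it was deposited for (limma, adjusted p under 0.05; 2426 at an unadjusted p under 0.05, against 17762 with the value table). The samples on which both sources match, T0 samples 1 and 3 and T1 sample 1, are called the undisputed arrays. They were also the T0 and T1 arrays of 1 scan session, and the disputed ones those of a second, so that a difference in the undisputed arrays is a difference within a session and shares no array with that in the others. Within the undisputed arrays of the series, where the spread of the lone T1 sample is taken from the remaining groups, 10924 features were called. Each gene list below is given with its median there, and also with normexp, a different way to subtract the background, where that moved the median by more than 1.5 times. In the undisputed arrays, the fit has fewer arrays, so that fewer calls and a smaller difference are separate facts.

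One week after SCI, 15657 of 35469 features differed from T0, which is 44.1% of the array. Of these DEGs, 6772 were higher (19.1%) and 8885 lower (25.1%) at T1. The rises were larger than the falls, with 621 features higher by at least 3 on the log2 scale against 18 lower by that much. The median difference over all features was -0.10, and the median size of the difference among DEGs was 0.95, against a median SD between samples of 0.25 in each group. Since so much of the array was called, the number of members called in a list below is to be read against these percentages. The amount of total RNA was 500 ng for each sample and the arrays were quantile normalized, so a level is relative to all RNA of its sample. In whole tissue, fewer cells of a type, less RNA per cell and dilution by the RNA of other cells cannot be told apart, here and throughout. All tests are limma's moderated statistics with Benjamini-Hochberg adjustment over all 35469 features, errors are standard errors of the difference, and n = 4 in each group.

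The 12 genes with the largest rises among those measured in every sample are given first. Fcrls, an Fc receptor-like gene of rodent microglia now listed as Fcrl2, had levels of 6.91, 7.26, 6.73 and 5.50 in the T0 samples and 15.25, 15.79, 13.88 and 16.30 in the T1 samples (log2 difference 8.70 ± 0.81, adjusted p = 7.77e-09). Cd68, a lysosomal glycoprotein of macrophages, had levels of 9.47, 9.20, 9.51 and 8.83 in the T0 samples and 16.31, 16.47, 16.01 and 16.41 in the T1 samples and thus rose 132-fold (log2 difference 7.05 ± 0.16, adjusted p = 3.98e-19). The T1 levels of Cd68 lay close together and far above all T0 levels. Plbd1, a phospholipase B-like enzyme (7.90), Ms4a4a, a membrane protein of macrophages (7.61), Hk3, the hexokinase of myeloid cells (7.35), and Gpnmb, a glycoprotein of phagocytes with much lipid (6.35), rose as well. So did Klra5, a lectin-like receptor of the natural killer (NK) family (7.16), and Slamf9, a receptor of the immunoglobulin superfamily (6.003). For Hk3, T1 sample 3 stood apart below the other T1 samples. Ifitm1, an interferon-induced membrane protein, rose by 7.63 ± 0.26, and Col3a1, a fibrillar collagen, by 6.35 ± 0.50. Msln, the mesothelin of serous linings, had T1 levels of 12.03, 13.00, 12.43 and 8.99, so that 1 sample lay well below the other 3 and still above all T0 levels, which were 4.29 to 4.87 (log2 difference 7.08 ± 0.76, adjusted p = 7.62e-08). Slpi, an inhibitor of leukocyte proteases, spread more among the T1 samples than among the T0 samples (log2 difference 6.92 ± 0.81, adjusted p = 2.73e-07).

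Some genes were well above background only after injury. Of all features, 434 were well above background on all T1 arrays and on no T0 array, against 55 the other way round, so for these only a lower bound of the change can be given. The scavenger receptor Msr1 was at least 269-fold higher (adjusted p = 1.59e-12), the sialic acid-binding macrophage receptor Siglec1 at least 219-fold higher (adjusted p = 1.01e-10), the myeloid receptor Cd300le at least 204-fold higher (adjusted p = 1.13e-11) and the fatty acid-binding protein Fabp4 at least 199.9-fold higher (adjusted p = 2.34e-13). Crisp1, a secreted cysteine-rich protein now listed as Crisp3, was at least 160.5-fold higher (adjusted p = 4.55e-11), and its T1 levels of 11.01, 9.20, 10.75 and 9.21 fell into a higher and a lower pair.

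The largest falls were smaller than the largest rises. Nrn1, the neuritin of neurites, had levels of 12.63, 11.87, 12.43 and 11.64 in the T0 samples and 9.55, 8.94, 9.98 and 8.45 in the T1 samples (log2 difference -2.91 ± 0.39, adjusted p = 1.61e-06). Lin7b, a scaffold of synapses (-2.65), Pvalb, a calcium-binding protein of fast-spiking neurons and of fast muscle (-2.60), and the immediate early gene Egr4 (-2.46) fell as well. For Egr4, the difference was -1.01 in the undisputed arrays, much smaller than over all arrays. Hmgcs1, the enzyme that makes the building block of the mevalonate pathway, had levels of 14.42, 14.84, 14.32 and 14.35 in the T0 samples and 11.48, 11.94, 11.74 and 11.69 in the T1 samples (log2 difference -2.77 ± 0.20, adjusted p = 1.11e-10). Scd1, a fatty acid desaturase, fell by 2.62 and Gjb6, the astrocytic connexin 30, by 2.59. Tnnc2, the troponin C of fast skeletal muscle, fell most, with levels of 12.81, 12.01, 12.57 and 12.25 in the T0 samples and 9.55, 9.29, 9.39 and 8.79 in the T1 samples (log2 difference -3.15 ± 0.47, adjusted p = 7.58e-06). Afp (-2.79), the small heat shock protein gene Hspb3 (-2.73) and Dleu7 (-2.47) were also among the largest falls.

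**Figure D1:**
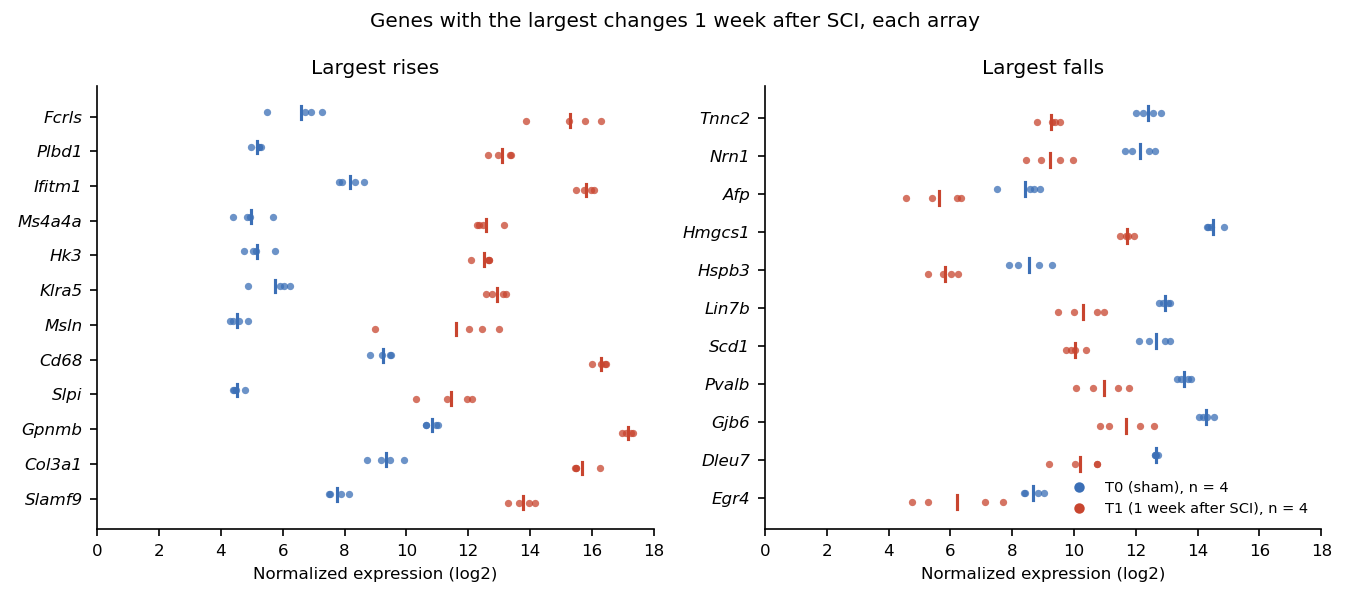
Normalized log2 level of each sample for the 12 genes with the largest rises (left) and 11 of the 12 with the largest falls (right) among genes well above background on all 8 arrays. Points are samples, n = 4 per group, and bars are group means. The 4 T1 samples lie apart from the 4 T0 samples for every gene shown, because the absence of overlap was a condition for inclusion, and the rises (largest 8.70) are larger than the falls (largest -3.15).

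To describe the tissue, genes were grouped in 18 lists of cell type markers and 27 lists of pathways. Macrophages and microglia share most of their markers, and all 12 of these were DEGs with higher levels at T1, by a median of 3.06 (2.89 with 12 called higher in the undisputed arrays). The mean level of the list was 9.67, 9.77, 9.70 and 9.81 on the T0 arrays and 12.89, 13.19, 12.69 and 13.30 on the T1 arrays, with no overlap. None of the 12 overlapped between the groups, with all T1 levels above all T0 levels, which held for 17.4% of all features. Lyz2, the lysozyme of phagocytes, rose 32.8-fold (log2 difference 5.04 ± 0.20, adjusted p = 2.23e-15), the lipopolysaccharide co-receptor Cd14 16.2-fold (log2 difference 4.02 ± 0.22, adjusted p = 9.44e-13) and the shared signalling chain Fcer1g 8.84-fold (log2 difference 3.14 ± 0.19, adjusted p = 4.13e-12). Genes of resting microglia rose less, with 4 of 7 called and a median of 1.12 (1.03 with 4 called higher in the undisputed arrays). Among them, the fractalkine receptor Cx3cr1 rose by 1.94 ± 0.40 and the purinergic receptor P2ry12 by 1.11 ± 0.31, while Tmem119 (0.61 ± 0.66) and Sall1 (0.16 ± 0.11), which mark microglia most strictly, did not pass the test.

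Lysosomal and phagocytic genes were 19 of 21 higher, with a median of 1.94 (1.90 with 19 called higher in the undisputed arrays). The collagen-cleaving cathepsin Ctsk had levels of 9.16, 9.51, 9.51 and 9.03 in the T0 samples and 14.93, 15.01, 15.01 and 15.34 in the T1 samples and rose 54.7-fold (log2 difference 5.77 ± 0.19, adjusted p = 1.25e-16). Ctsz (3.33) and Ctsc (3.32), further cathepsins, and Mertk (2.39) and Axl (2.30), receptors for dying cells, rose as well. Mfge8, which bridges dying cells to phagocytes, had a difference of -0.17 ± 0.20 and was not called.

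Phagocytes that clear myelin take up lipid and export cholesterol. All 16 genes of lipid uptake and efflux were called higher, by a median of 3.26 (3.17 with 15 called higher in the undisputed arrays). Cd36, a scavenger receptor for oxidised lipid, had levels of 4.93, 4.89, 4.16 and 3.90 in the T0 samples and 9.66, 10.04, 9.61 and 9.36 in the T1 samples (log2 difference 5.20 ± 0.41, adjusted p = 3.73e-10). Abca1, the pump that hands cholesterol to apolipoproteins, had levels of 7.96, 8.35, 7.87 and 7.61 in the T0 samples and 12.13, 12.84, 12.73 and 13.82 in the T1 samples (log2 difference 4.93 ± 0.33, adjusted p = 3.21e-11). Both genes were higher in every T1 sample than in any T0 sample. Lpl, the lipoprotein lipase, rose by 3.45 ± 0.30, the lipid receptor Trem2 by 3.26 ± 0.14 and Plin2, a coat protein of lipid droplets carried on the array under an accession, by 2.59 ± 0.17. Apoe, the main apolipoprotein of the nervous system, rose least, by 0.60 ± 0.13.

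The enzymes that make cholesterol moved the other way. Of 25 genes of cholesterol synthesis and its control, 24 were called lower and 0 higher, with a median of -1.63 (-1.66 with 23 called lower in the undisputed arrays). In all 25, the 4 T1 levels lay below the 4 T0 levels, which held for 23.6% of all features. After Hmgcs1, Idi1, the isopentenyl diphosphate isomerase, fell most (log2 difference -2.17 ± 0.19, adjusted p = 1.76e-09), with levels of 14.11, 13.98, 14.12 and 13.60 in the T0 samples and 11.96, 11.77, 11.91 and 11.50 in the T1 samples. Tm7sf2, a sterol reductase, fell by 2.09 and Insig1, which holds the sterol sensor in the endoplasmic reticulum, by 2.00. The epoxidase Sqle (-1.87 ± 0.12) and Srebf2 (-0.91 ± 0.13), the transcription factor that drives these genes, fell too. Oligodendrocyte markers, of which 11 of 14 were called lower, moved with this list, and their part in it was not tested. The median of the list was -1.79, -1.88 and -2.07 at T2, T4 and T8, each against the same T0 samples.

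Complement proteins tag debris for phagocytes, and 17 of 22 complement genes were called higher and 1 lower, with a median of 2.60 (2.59 with 17 called higher in the undisputed arrays). Cfd, the first protease of the alternative pathway, rose 37.5-fold (log2 difference 5.23 ± 0.18, adjusted p = 2.00e-16). C6, a part of the membrane attack complex, rose by 4.75 ± 0.52, the protease C2 by 3.62 ± 0.20 and C1qc, a chain of the initiator C1q, by 4.15 ± 0.16. The other C1q chains rose less, C1qa by 2.93 ± 0.16 and C1qb by 2.60 ± 0.12. C3, on which all pathways converge, had levels of 13.48, 14.24, 13.93 and 14.38 in the T0 samples and 14.76, 14.98, 14.50 and 15.12 in the T1 samples and was not called (log2 difference 0.83 ± 0.47, adjusted p = 0.168), although its T1 levels all lay above the T0 levels. Cd59, which protects cells from the membrane attack complex, was the gene that fell (log2 difference -0.55 ± 0.15, adjusted p = 0.00422). Fc receptors, which bind antibodies, were 7 of 9 higher and 1 lower (median 3.02; 2.89 with 7 called higher and 1 lower in the undisputed arrays). Inhibitory and activating receptors both rose, Fcgr2b by 2.76 ± 0.15, Fcgr2a by 3.62 ± 0.15 and Fcgr1a by 3.22 ± 0.22. The low-affinity IgE receptor Fcer2 fell (log2 difference -1.54 ± 0.36, adjusted p = 0.00119). In the arrays of the second scan session, 0 Fc receptor genes were called lower.

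Chemokines recruit leukocytes, and 23 of 32 chemokines and chemokine receptors were called higher and 0 lower, with a median of 2.20 (2.03 with 21 called higher in the undisputed arrays, 1.05 with normexp). The monocyte attractant Ccl7 had levels of 3.93, 4.35, 2.72 and 3.60 in the T0 samples and 10.59, 10.37, 9.58 and 8.94 in the T1 samples (log2 difference 6.22 ± 0.40, adjusted p = 1.19e-11, well above background on 1 of the 4 T0 arrays). Ccl2, its neighbour in function, rose by 4.78 ± 0.34, Ccl3 by 4.99 ± 0.16 and Ccl6 by 5.20 ± 0.33. Of the receptors of these chemokines, Ccr1 was at least 15.9-fold higher (adjusted p = 5.97e-07) and Ccr2 was called higher (2.22) but was well above background on no T0 array and on 2 of the 4 T1 arrays. The neutrophil attractant Cxcl1 rose by 5.08 ± 0.57 (well above background on 3 of the 4 T0 arrays), although T0 sample 3 lay far below the others, with T0 levels of 4.50, 4.62, 1.43 and 4.64. Ccl5 (0.11 ± 0.36), Ccl17 (0.27 ± 0.35) and Ccl22 (0.08 ± 0.25), which attract T cells, were not called, nor was the neuronal chemokine Cx3cl1 (-0.35 ± 0.16).

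Of 34 cytokines and receptors, 28 were called higher and 1 lower, with a median of 1.77 (1.77 with 23 called higher and 1 lower in the undisputed arrays, 0.88 with normexp). Receptors were among the largest rises. The tumour necrosis factor receptor Tnfrsf1b had levels of 9.07, 8.80, 9.32 and 8.90 in the T0 samples and 12.61, 12.67, 12.48 and 12.80 in the T1 samples (log2 difference 3.62 ± 0.20, adjusted p = 6.28e-13). The interleukin 10 receptor Il10ra rose by 3.24 ± 0.47 (well above background on 3 of the 4 T0 arrays), and the decoy receptor Il1r2 by 3.11 ± 0.49 (well above background on 3 of the 4 T0 arrays). Tgfb1, the fibrogenic cytokine, rose 8.68-fold (log2 difference 3.12 ± 0.18, adjusted p = 2.02e-12). The inflammatory cytokines rose by less, Il1b by 1.32 ± 0.26 and Tnf by 1.11 ± 0.33 (well above background on 3 of the 4 T0 arrays), while Il6 was at least 3.25-fold higher (adjusted p = 6.39e-04). Il10, an anti-inflammatory cytokine (-0.03 ± 0.37), was not called, and Il4 and Ifng, which steer macrophages towards one state or another, were not well above background on any T0 or T1 array. Lif, a cytokine of the interleukin 6 family, was the gene that fell (log2 difference -0.55 ± 0.15, adjusted p = 0.00468). In the arrays of the second scan session, 0 genes of this list were called lower.

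Interferons switch on antiviral and antigen-processing genes through an element in their promoters. Of the 24 interferon response genes, 23 were called higher and 0 lower, with a median of 1.92 (1.50 with 16 called higher in the undisputed arrays). After Ifitm1, Ifitm2 rose most, with levels of 11.17, 10.47, 11.15 and 10.74 in the T0 samples and 15.14, 15.33, 14.80 and 15.35 in the T1 samples (log2 difference 4.27 ± 0.24, adjusted p = 1.16e-12). Mx1, a GTPase that blocks viruses, had levels of 4.42, 4.26, 4.26 and 4.73 in the T0 samples and 6.97, 10.31, 7.23 and 9.59 in the T1 samples (log2 difference 4.11 ± 0.65, adjusted p = 1.47e-05, well above background on 2 of the 4 T0 arrays). T1 samples 2 and 4 were higher in Mx1 than samples 1 and 3, and Oasl, an oligoadenylate synthetase-like protein, had the same order, with T1 levels of 4.97, 8.14, 5.44 and 7.08 (log2 difference 2.93 ± 0.60, adjusted p = 3.20e-04, well above background on 1 of the 4 T0 arrays). The mean level of the list was 8.26, 8.50, 8.45 and 8.25 on the T0 arrays and 10.03, 11.17, 9.94 and 10.96 on the T1 arrays. T1 samples 2 and 4 thus also stood higher over the list as a whole. Their matched scanner outputs came from other slides than those of T1 samples 1 and 3. Ifit1 (0.57 ± 1.60, adjusted p = 0.817), well above background on 2 T1 arrays alone, was the gene not called. The list medians at the later times were 2.57, 2.48 and 2.43 at T2, T4 and T8, above that at T1.

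The interferon-stimulated response element, taken as the letters GAAA repeated after a gap of any 2 bases and searched on both strands in the RefSeq promoters of the GRCr8 build (250 bases before to 50 after the start of the gene, 27457 promoters), was present in 11 of the 17 members with a promoter in the table (64.7%), and in 3.77% of all promoters. Members with the element had a median difference of 2.05 and those without it of 1.89. The promoters of Ifitm2 (chr1:205482299-205482598, minus strand), of the antiviral gene Ifit3 (chr1:241527076-241527375, plus strand), which rose by 2.59 ± 0.55 (well above background on 2 of the 4 T0 arrays), and of the GTPase gene Gbp5 (chr2:233910749-233911048, plus strand), which was at least 4.84-fold higher (adjusted p = 3.53e-07), are shown because each carries 1 such element, in capitals, close to the start of the gene. Positions are those of GRCr8, and each sequence reads 5′ to 3′ in the direction of the gene, so that an element on the opposite strand appears as TTTC repeated after 2 bases.
Ifitm2: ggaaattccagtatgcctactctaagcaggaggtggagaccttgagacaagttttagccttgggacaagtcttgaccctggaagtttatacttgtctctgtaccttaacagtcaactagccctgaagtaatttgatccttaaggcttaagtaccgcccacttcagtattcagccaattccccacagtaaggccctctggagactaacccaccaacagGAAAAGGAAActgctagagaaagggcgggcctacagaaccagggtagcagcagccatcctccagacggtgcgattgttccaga
Ifit3: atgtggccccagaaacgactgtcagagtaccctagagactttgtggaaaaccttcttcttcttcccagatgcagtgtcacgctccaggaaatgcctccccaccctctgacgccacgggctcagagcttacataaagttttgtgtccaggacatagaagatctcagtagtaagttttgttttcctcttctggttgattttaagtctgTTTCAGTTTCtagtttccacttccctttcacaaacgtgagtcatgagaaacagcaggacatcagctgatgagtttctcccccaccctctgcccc
Gbp5: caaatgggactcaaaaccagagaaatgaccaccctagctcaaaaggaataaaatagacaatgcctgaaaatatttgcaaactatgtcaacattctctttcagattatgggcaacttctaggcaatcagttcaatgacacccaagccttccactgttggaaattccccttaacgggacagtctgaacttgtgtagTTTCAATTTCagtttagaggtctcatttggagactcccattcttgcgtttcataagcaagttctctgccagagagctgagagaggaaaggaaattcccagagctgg

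Genes of antigen presentation were 15 of 16 higher and 0 lower, by a median of 1.84 (2.03 with 13 called higher in the undisputed arrays, 1.19 with normexp). Cd86, which co-stimulates T cells, had levels of 6.16, 6.24, 5.63 and 6.30 in the T0 samples and 9.56, 9.57, 8.86 and 10.00 in the T1 samples (log2 difference 3.42 ± 0.23, adjusted p = 2.74e-11). The peptide transporter Tap1 had levels of 7.75, 8.98, 7.71 and 8.98 in the T0 samples and 10.696, 11.97, 10.77 and 12.01 in the T1 samples (log2 difference 3.01 ± 0.35, adjusted p = 2.72e-07). In each group, samples 2 and 4 lay above samples 1 and 3. By the scanner output that matched each sample, samples 2 and 4 of both groups shared the same slides. Samples 1 and 3 were on others, so sample and slide cannot be told apart here. Ciita, the master regulator of class II genes, was at least 5.18-fold higher (adjusted p = 4.03e-04). RT1-Bb, a class II chain, rose by 2.61 ± 0.67, a value that dropped to 1.66 without T0 sample 1, the T0 levels being 4.90, 8.82, 8.45 and 8.78. Cd74, the class II invariant chain, was the gene that missed the threshold (log2 difference 1.08 ± 0.45, adjusted p = 0.0569).

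**Figure D2:**
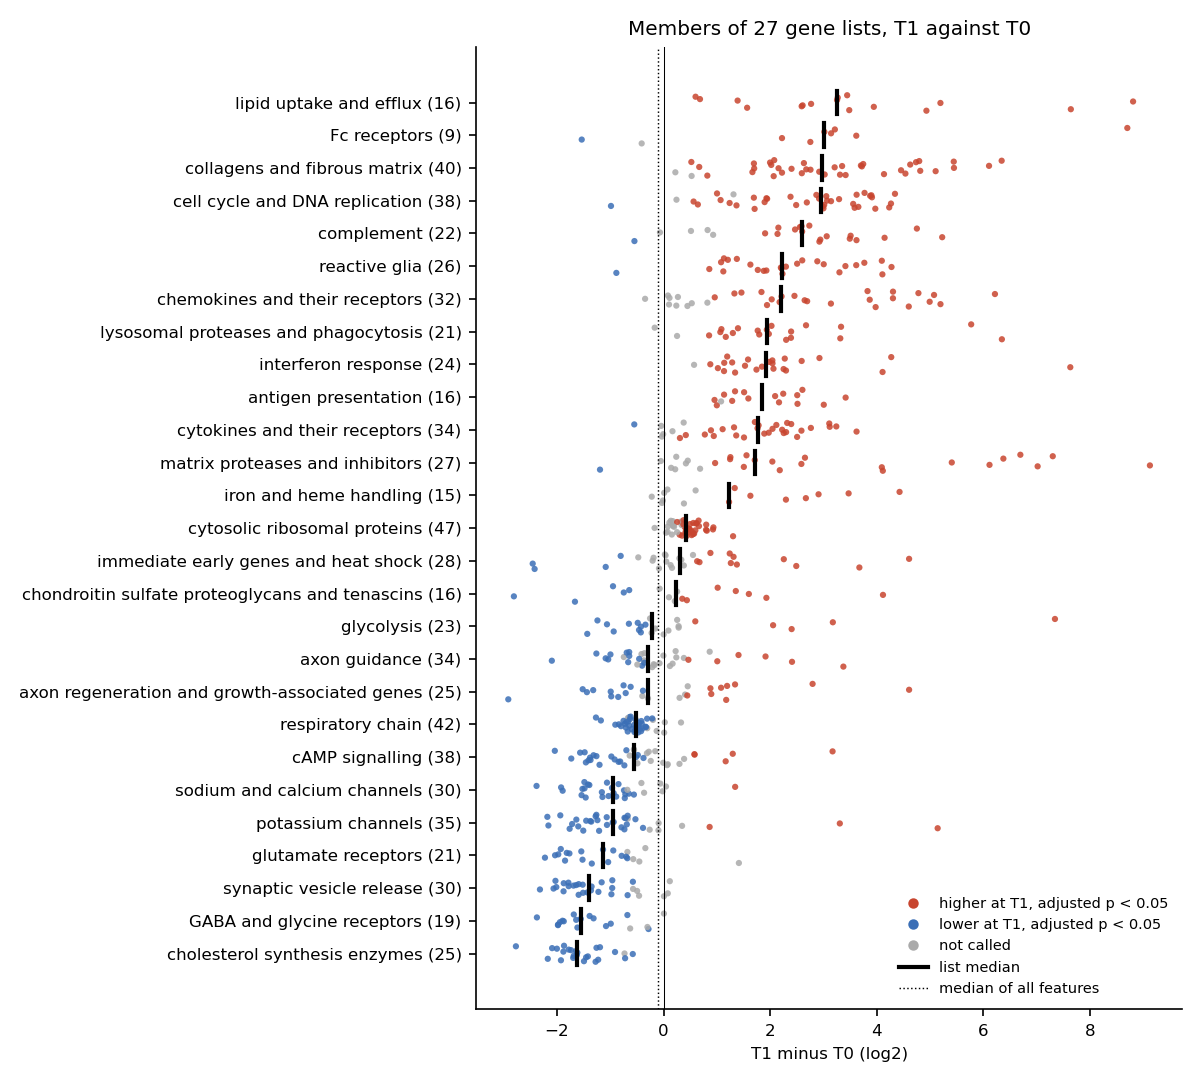
Difference T1 minus T0 (log2) of every measured member of 27 gene lists, with the number of members in brackets; coloured points passed adjusted p under 0.05, grey points did not, black bars are list medians and the dotted line is the median of all 35469 features (-0.10). Lipid uptake, Fc receptor, collagen and cell cycle genes lie furthest to the right, and cholesterol synthesis, GABA and glycine receptor and synaptic vesicle genes furthest to the left.

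Markers of other blood cells gave a mixed account. Of 13 T and NK cell genes, 8 were called higher and 0 lower, with a median of 0.89 (0.83 with 6 called higher in the undisputed arrays, 0.36 with normexp). Cd8a had levels of 4.07, 4.26, 2.92 and 3.24 in the T0 samples and 11.17, 11.19, 10.72 and 12.06 in the T1 samples (log2 difference 7.67 ± 0.54, adjusted p = 6.99e-11, well above background on 1 of the 4 T0 arrays) and Cd8b rose by 5.81 ± 0.44, Cd4 by 3.10 ± 0.31 (well above background on 3 of the 4 T0 arrays). In the rat, macrophages carry CD4 and NK cells carry CD8a, so these genes do not mark T cells alone. Among genes of the T cell receptor complex, Cd3g rose by 1.56 ± 0.60 and Cd3d by 0.63 ± 0.22, and Cd3e (2.66) was called higher although well above background on 2 of the 4 T1 arrays alone. The kinase gene Zap70 (-0.35 ± 0.20) was not called, and Cd247 was not well above background on any array of either group. The adhesion gene Cd2 was at least 4.67-fold higher (adjusted p = 0.0026). Neutrophil genes were 3 of 8 higher (median 0.71; 0.96 with 2 called higher in the undisputed arrays, 0.06 with normexp), namely the colony-stimulating factor receptor Csf3r (log2 difference 3.16 ± 0.42, adjusted p = 1.34e-06) and the calprotectin chains S100a8 (log2 difference 2.67 ± 0.71, adjusted p = 0.00333, well above background on 1 of the 4 T0 arrays) and S100a9 (log2 difference 1.75 ± 0.50, adjusted p = 0.00614). Of the granule genes that define neutrophils, Camp (0.11 ± 0.30) was not called, Mpo was not well above background on any T0 or T1 array and Ltf was so on 1 array of each group. Of 6 B and plasma cell genes, 0 were called by limma (0 at an unadjusted p under 0.05; median -0.20; -0.48 with 0 called in the undisputed arrays, -0.06 with normexp), and 3 of them were not well above background on any T0 or T1 array. The joining chain gene Igj and the surface antigen gene Ms4a1 were among them. Of 4 red blood cell genes, 0 were called by limma (1 at an unadjusted p under 0.05; median 0.13; 0.02 with 0 called in the undisputed arrays), and the beta globin Hbb had levels of 10.64, 10.90, 11.19 and 11.26 in the T0 samples and 11.85, 11.50, 11.08 and 12.37 in the T1 samples, which overlapped.

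Division of cells was read from 38 genes of the cell cycle and DNA replication, of which 35 were called higher and 1 lower, with a median of 2.95 (2.92 with 31 called higher and 1 lower in the undisputed arrays, 1.79 with normexp). Mki67, the proliferation marker Ki-67, which the array lists as RGD1566252, had levels of 6.56, 7.16, 5.93 and 6.18 in the T0 samples and 10.61, 10.87, 10.58 and 11.12 in the T1 samples (log2 difference 4.34 ± 0.26, adjusted p = 3.76e-12). Ccnb2, the mitotic cyclin B2, had levels of 5.85, 6.15, 5.12 and 5.53 in the T0 samples and 10.00, 10.01, 9.44 and 10.27 in the T1 samples and rose 19.3-fold (log2 difference 4.27 ± 0.23, adjusted p = 7.48e-13). The S phase and mitotic cyclin Ccna2 rose by 4.24 ± 0.31 and the DNA topoisomerase Top2a by 3.97 ± 0.24. Members of the replicative helicase rose as well, Mcm5 by 3.77 ± 0.47 (well above background on 2 of the 4 T0 arrays), Mcm6 by 3.29 ± 0.38 and Mcm2 by 2.38 ± 0.34, and the clamp Pcna rose least of those called, by 0.56 ± 0.14. Ccne2, a cyclin of the entry into S phase, fell (log2 difference -0.99 ± 0.22, adjusted p = 5.98e-04), and Ccne1 (0.24 ± 0.12) was not called. The median of the list was 1.95, 1.50 and 1.103 at T2, T4 and T8 against the same T0 samples, the steepest decline with time among the lists that rose.

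The cell cycle homology region TTTGAA, an element through which these genes are held silent outside the cell cycle, was present on either strand in 12 of the 27 members with a promoter in the table (44.4%), against 18.1% of all promoters. The median difference was 3.10 for members with it and 2.69 for those without. The promoters of Top2a (chr10:84473044-84473343, minus strand), of Cdk1 (chr20:19265043-19265342, plus strand), the mitotic kinase listed as Cdc2, which rose by 3.88 ± 0.26, and of the kinase gene Plk1 (chr1:186147408-186147707, plus strand), which rose by 3.59 ± 0.21, are shown with the element in capitals (TTCAAA where it lies on the opposite strand), again from GRCr8.
Top2a: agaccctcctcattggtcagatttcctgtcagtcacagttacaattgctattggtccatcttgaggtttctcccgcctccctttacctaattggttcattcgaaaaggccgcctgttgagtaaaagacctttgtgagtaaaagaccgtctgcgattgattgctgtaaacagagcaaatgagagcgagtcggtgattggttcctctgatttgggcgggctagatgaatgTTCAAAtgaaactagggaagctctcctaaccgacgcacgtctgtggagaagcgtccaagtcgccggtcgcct
Cdk1: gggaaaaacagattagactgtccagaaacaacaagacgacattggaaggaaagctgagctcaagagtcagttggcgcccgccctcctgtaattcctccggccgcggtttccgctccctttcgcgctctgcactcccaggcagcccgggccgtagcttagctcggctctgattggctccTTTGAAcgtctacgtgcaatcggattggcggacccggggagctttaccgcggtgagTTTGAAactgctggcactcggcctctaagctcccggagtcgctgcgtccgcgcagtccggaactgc
Plk1: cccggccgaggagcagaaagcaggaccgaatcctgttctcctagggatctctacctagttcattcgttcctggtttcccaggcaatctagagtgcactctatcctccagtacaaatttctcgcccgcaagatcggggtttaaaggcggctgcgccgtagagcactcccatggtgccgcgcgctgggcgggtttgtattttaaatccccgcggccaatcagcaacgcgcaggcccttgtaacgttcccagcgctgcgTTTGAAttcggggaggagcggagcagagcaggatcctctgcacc

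The fibrous matrix of the scar is made of collagens, the proteins that bind them and the enzymes that cross-link them. Of 40 such genes, 38 were called higher and 0 lower, by a median of 2.97 (2.75 with 36 called higher in the undisputed arrays). Col3a1 had levels of 9.48, 9.19, 9.92 and 8.73 in the T0 samples and 15.46, 16.27, 15.50 and 15.49 in the T1 samples, and T1 sample 2 was the highest. Col1a1 and Col1a2, which form collagen I, rose by 4.63 ± 0.40 and 4.82 ± 0.40. Postn, the periostin of wound fibroblasts, rose 69-fold (log2 difference 6.11 ± 0.42, adjusted p = 4.65e-11, well above background on 3 of the 4 T0 arrays), and the collagens Col8a1 (5.45) and Col6a3 (5.45, well above background on 1 of the 4 T0 arrays) and the cross-linker Lox (5.11) rose nearly as much. Fibronectin, Fn1, rose by 3.72 ± 0.24. The basement membrane collagen Col4a1 rose by 0.67 ± 0.25 (adjusted p = 0.0333), but its difference in the undisputed arrays was 0.02. Pericyte and smooth muscle markers moved with this list, 4 of 7 higher (median 0.64; 0.61 with 3 called higher and 1 lower in the undisputed arrays), with Des (log2 difference 1.39 ± 0.18, adjusted p = 9.34e-07), Tagln (log2 difference 1.31 ± 0.32, adjusted p = 0.00151) and Pdgfrb (log2 difference 1.05 ± 0.21, adjusted p = 1.83e-04), and their part in the collagen result was not tested.

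Proteases that cut the matrix and their inhibitors were 19 of 27 higher and 1 lower, by a median of 1.71 (2.11 with 17 called higher and 1 lower in the undisputed arrays). Mmp12, the macrophage elastase, had levels of 1.28, 2.34, 5.28 and 1.46 in the T0 samples and 11.02, 12.64, 11.28 and 11.93 in the T1 samples (log2 difference 9.13 ± 0.83, adjusted p = 5.29e-09, well above background on 1 of the 4 T0 arrays). The collagenase Mmp8 was at least 90.5-fold higher (adjusted p = 1.59e-09) and the matrilysin Mmp7 at least 114-fold higher (adjusted p = 2.23e-05), the latter with T1 levels of 8.48, 13.56, 8.90 and 8.47, sample 2 being far above the others. The bound for Mmp7 is that of the group mean, which sample 2 raised. Plau, the urokinase that activates plasmin, rose 83.1-fold (log2 difference 6.38 ± 0.29, adjusted p = 2.66e-14, well above background on 1 of the 4 T0 arrays). The inhibitor Timp1 had levels of 11.59, 11.45, 11.60 and 11.03 in the T0 samples and 15.69, 15.66, 15.55 and 15.16 in the T1 samples (log2 difference 4.10 ± 0.17, adjusted p = 7.74e-15), while Timp4 fell (log2 difference -1.19 ± 0.24, adjusted p = 2.73e-04).

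Chondroitin sulfate proteoglycans and tenascins, which bar axons, split in both directions, 7 of 16 higher and 5 lower (median 0.23; 0.28 with 6 called higher and 1 lower in the undisputed arrays). Tnc, the tenascin of wounds, had levels of 4.85, 5.80, 4.98 and 4.83 in the T0 samples and 8.94, 9.95, 8.72 and 9.33 in the T1 samples (log2 difference 4.12 ± 0.43, adjusted p = 5.24e-08). The hyaluronan receptor Cd44 rose by 1.93 ± 0.30 and versican, Vcan, by 1.36 ± 0.13. Genes of perineuronal nets, the coats around neurons, were among those that fell. Aggrecan, Acan, had levels of 8.07, 8.00, 7.72 and 8.11 in the T0 samples and 6.51, 6.27, 6.48 and 5.98 in the T1 samples (log2 difference -1.66 ± 0.32, adjusted p = 1.50e-04). The link protein Hapln1 fell too (log2 difference -2.81 ± 0.82, adjusted p = 0.00725, well above background on 3 of the 4 T1 arrays).

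Astrocytes respond to injury by raising filament and secreted proteins. Of 26 genes of reactive glia, 25 were called higher and 1 lower, by a median of 2.22 (2.31 with 25 called higher and 1 lower in the undisputed arrays, 1.48 with normexp). The filament gene Vim had levels of 11.56, 12.49, 11.55 and 11.86 in the T0 samples and 15.87, 16.42, 16.04 and 16.24 in the T1 samples (log2 difference 4.28 ± 0.23, adjusted p = 5.34e-13), and fibroblasts and macrophages carry it too. The annexin Anxa1 rose by 4.11 ± 0.17, the membrane protein Emp1 by 3.77 ± 0.24 and lipocalin 2, Lcn2, by 3.62 ± 0.50. Gfap, the astrocytic filament, rose by 0.86 ± 0.29 (adjusted p = 0.0182), with levels of 12.53, 13.23, 12.66 and 13.57 in the T0 samples and 13.69, 13.59, 13.69 and 14.46 in the T1 samples. In the arrays of the second scan session, Gfap was not called. Its lowest T1 level was only just above the highest T0 level, which was that of sample 4, and the group means at the later times were 14.25, 14.82 and 14.75 at T2, T4 and T8. The chaperone Cryab fell (log2 difference -0.89 ± 0.16, adjusted p = 5.57e-05). Macrophage and microglia markers moved with this list, and their part in it was not tested.

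Markers of astrocytes at rest were 5 of 11 lower and 1, Gfap, higher (median -0.45; -0.50 with 1 called higher and 4 lower in the undisputed arrays). Gjb6 had levels of 14.06, 14.16, 14.31 and 14.52 in the T0 samples and 12.13, 11.14, 12.57 and 10.85 in the T1 samples (log2 difference -2.59 ± 0.29, adjusted p = 1.28e-07). The potassium channel Kcnj10 fell by 1.27, the water channel Aqp4 by 0.94, the folate enzyme Aldh1l1 by 0.86 and the glutamate transporter Slc1a2 by 0.83. The transporter Slc1a3 (-0.11 ± 0.15) and the synthetase Glul (0.28 ± 0.17) were not called. Ependymal markers, which belong to the ciliated lining of the central canal, were 3 of 5 lower (median -1.16; -1.16 with 2 called lower in the undisputed arrays, -0.18 with normexp). They were Tmem212, listed as RGD1563109 (log2 difference -1.38 ± 0.36, adjusted p = 0.00333), the cilium gene Ccdc153 (log2 difference -1.26 ± 0.25, adjusted p = 2.43e-04) and Spag6 (log2 difference -1.16 ± 0.40, adjusted p = 0.0211, well above background on 3 of the 4 T0 arrays, well above background on 1 of the 4 T1 arrays), the last of which lost its call without T0 sample 3 (adjusted p = 0.0632) or T1 sample 4 (0.0974).

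All 14 neuronal markers were called lower, by a median of -1.55 (-1.26 with 5 called lower in the undisputed arrays). Their mean level was 13.83, 13.77, 13.60 and 13.91 on the T0 arrays and 12.49, 12.09, 12.60 and 11.76 on the T1 arrays. T1 sample 4 was the lowest and the T1 samples spread more widely than the T0 samples. Snap25, of the machinery that fuses vesicles, had levels of 15.32, 14.93, 15.07 and 15.02 in the T0 samples and 13.19, 12.47, 13.35 and 12.06 in the T1 samples (log2 difference -2.32 ± 0.41, adjusted p = 5.24e-05). The potassium-chloride transporter Slc12a5, which makes GABA inhibitory, had levels of 12.34, 12.19, 12.38 and 12.28 in the T0 samples and 10.43, 10.14, 11.04 and 9.92 in the T1 samples (log2 difference -1.91 ± 0.30, adjusted p = 1.70e-05). Rbfox3, the nuclear antigen NeuN, which the array lists as RGD1560070, fell too (log2 difference -1.81 ± 0.41, adjusted p = 8.57e-04), and the neurofilament Nefl by 1.70.

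Markers of neuronal subtypes were lower as well. Of 5 motor neuron genes, 4 were called lower (median -1.25; -0.79 with 1 called lower in the undisputed arrays), including the choline transporter Slc5a7 (log2 difference -1.53 ± 0.31, adjusted p = 2.58e-04) and the vesicular acetylcholine transporter Slc18a3 (log2 difference -1.29 ± 0.28, adjusted p = 4.92e-04). Chat, the enzyme that makes acetylcholine, had levels of 5.04, 5.24, 4.91 and 5.44 in the T0 samples and 4.18, 5.97, 4.65 and 4.20 in the T1 samples and was not called, with 1 T1 sample above all T0 samples. Inhibitory neuron genes were 5 of 6 lower (median -1.90; -1.39 with 0 called in the undisputed arrays). The glycine transporter Slc6a5 had levels of 12.89, 12.43, 12.80 and 12.53 in the T0 samples and 11.16, 9.92, 11.19 and 9.59 in the T1 samples (log2 difference -2.20 ± 0.53, adjusted p = 0.00152), and the GABA-making enzymes Gad1 and Gad2 fell by 1.45 and 1.93. Excitatory neuron genes were 3 of 5 lower (median -1.43; -1.17 with 2 called lower in the undisputed arrays), with the glutamate transporter Slc17a6 (log2 difference -2.01 ± 0.39, adjusted p = 1.73e-04) and the peptide genes Grp (log2 difference -1.81 ± 0.23, adjusted p = 6.94e-07) and Tac1 (log2 difference -1.43 ± 0.29, adjusted p = 2.90e-04).

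The parts of the synapse fell with them. Of 30 genes of vesicle release, 24 were called lower and 0 higher (median -1.40; -1.07 with 8 called lower in the undisputed arrays), with the scaffold Pclo (log2 difference -2.06 ± 0.31, adjusted p = 8.06e-06) and the rabphilin Rph3a (log2 difference -2.03 ± 0.44, adjusted p = 5.50e-04) among the largest falls. The synaptobrevin Vamp2 (0.12 ± 0.22) was not called, whereas its relative Vamp1 fell (log2 difference -1.88 ± 0.26, adjusted p = 2.90e-06). Glutamate receptors were 16 of 21 lower (median -1.14; -0.98 with 10 called lower in the undisputed arrays). Grin1, the obligatory subunit of NMDA receptors, had levels of 12.36, 11.90, 12.36 and 12.18 in the T0 samples and 10.93, 9.87, 10.55 and 9.55 in the T1 samples (log2 difference -1.98 ± 0.40, adjusted p = 2.88e-04), and the metabotropic receptors Grm8, Grm4 and Grm3 fell by 2.23, 2.04 and 1.93. Grin2d had the only difference above 0, 1.41 ± 0.63, and was not called. GABA and glycine receptors were 16 of 19 lower (median -1.55; -1.24 with 10 called lower in the undisputed arrays, -0.96 with normexp). The extrasynaptic subunit Gabra5 had levels of 8.40, 7.75, 8.34 and 7.80 in the T0 samples and 5.94, 5.39, 6.24 and 5.20 in the T1 samples (log2 difference -2.38 ± 0.29, adjusted p = 5.53e-07). The glycine receptor subunit Glra2 fell by 1.98.

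Ion channels followed the neurons with exceptions. Of 35 potassium channel genes, 27 were called lower and 3 higher (median -0.95; -0.85 with 3 called higher and 19 lower in the undisputed arrays, -0.63 with normexp). Kcna4 and Kcnb2, voltage-gated channels of neurons, fell by 2.18 and 2.16. Kcnn4, a calcium-activated channel of leukocytes and microglia, went the other way, with levels of 7.75, 7.37, 7.80 and 7.66 in the T0 samples and 13.07, 12.84, 12.37 and 12.88 in the T1 samples (log2 difference 5.14 ± 0.27, adjusted p = 3.25e-13). The leak channel Kcnk6 (log2 difference 3.31 ± 0.29, adjusted p = 3.42e-09) and Kcna3, the channel of lymphocytes and microglia (log2 difference 0.87 ± 0.18, adjusted p = 3.71e-04), rose as well. Sodium and calcium channels were 23 of 30 lower and 1 higher (median -0.95; -0.76 with 1 called higher and 15 lower in the undisputed arrays, -0.57 with normexp). Scn1a, a sodium channel of fast-spiking neurons, had levels of 11.87, 11.45, 11.49 and 11.36 in the T0 samples and 9.78, 9.01, 9.77 and 8.06 in the T1 samples (log2 difference -2.38 ± 0.46, adjusted p = 1.74e-04). Scn7a, an atypical sodium channel of glia and of Schwann cells, rose (log2 difference 1.34 ± 0.36, adjusted p = 0.00397), with group means of 10.87, 11.48 and 11.86 at T2, T4 and T8.

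Myelin was read from 14 oligodendrocyte markers, of which 11 were called lower and 0 higher, by a median of -0.77 (-0.76 with 11 called lower in the undisputed arrays). Mog, a glycoprotein on the outside of myelin, had levels of 14.89, 14.99, 15.07 and 14.59 in the T0 samples and 13.37, 13.12, 13.38 and 13.09 in the T1 samples (log2 difference -1.64 ± 0.15, adjusted p = 4.44e-09). Fa2h and Ugt8, which make the galactolipids of myelin, fell by 1.90 and 1.75. The bulk proteins of myelin changed less: Mbp, with levels of 15.42, 16.36, 15.45 and 16.36 in the T0 samples and 14.94, 15.72, 15.50 and 15.73 in the T1 samples, was not called, nor was Cnp (log2 difference -0.02 ± 0.35, adjusted p = 0.975). Samples 2 and 4 of T0 were higher than samples 1 and 3 in both. They were also the T0 samples of the second scan session, so sample and session cannot be told apart here. Within each session, the T1 levels of Mbp lay below its T0 levels. T1 sample 1 was below T0 samples 1 and 3, and T1 samples 2, 3 and 4 were below T0 samples 2 and 4. Of 5 genes of oligodendrocyte precursors, 2 were called higher and 2 lower (median -0.30; -0.38 with 1 called higher in the undisputed arrays, -0.19 with normexp), with Pdgfra (log2 difference 0.72 ± 0.15, adjusted p = 3.93e-04) higher and Olig1 (log2 difference -0.91 ± 0.17, adjusted p = 1.19e-04) lower, and the call of Cspg4 (0.44 ± 0.15, adjusted p = 0.0183) was lost without T0 sample 1 (0.0542) or 3 (0.0560) or T1 sample 4 (0.0601).

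Schwann cells form the myelin of peripheral nerves and enter the injured cord from the roots. Of 9 Schwann cell genes, 6 were called higher and 3 lower (median 0.64; 0.37 with 3 called higher and 1 lower in the undisputed arrays). Prx, the periaxin of peripheral myelin, had levels of 5.47, 6.70, 5.64 and 6.25 in the T0 samples and 6.85, 9.34, 8.03 and 7.54 in the T1 samples (log2 difference 1.92 ± 0.47, adjusted p = 0.00161), and its group means were 10.21, 11.18 and 11.35 at T2, T4 and T8. The factor Egr2, which is also an immediate early gene, rose by 3.68 ± 0.29 and the neurotrophin receptor Ngfr by 2.06 ± 0.22. The genes that fell, Mal (-1.34 ± 0.34), Cdh19 (-0.74 ± 0.29) and Sox10 (-0.36 ± 0.10), are shared with oligodendrocytes or other glia. Endothelial genes were 5 of 12 higher and 2 lower with a median of 0.10, and the median was of opposite sign in the undisputed (0.31) and the other arrays (-0.08). Cdh5 (0.99 ± 0.23), the cadherin of endothelium, and the junction gene Ocln (0.97 ± 0.18) rose, whereas the barrier transporter Abcb1a (-0.66 ± 0.16) fell.

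Skeletal muscle genes, which belong to tissue next to the cord, were 5 of 14 higher and 4 lower (median -0.17; -0.19 with 5 called higher and 3 lower in the undisputed arrays, -0.02 with normexp). Acta1 (log2 difference 1.95 ± 0.21, adjusted p = 7.06e-08) and Tnnt3 (log2 difference 1.82 ± 0.37, adjusted p = 3.10e-04, well above background on 3 of the 4 T0 arrays) rose, in contrast to Tnnc2. The mean level of the list was 6.85 to 7.19 in T0 and 6.62 to 6.97 in T1, so that the groups overlapped. The part of such tissue in the changes of Tnnc2 and Pvalb was not tested.

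**Figure D3:**
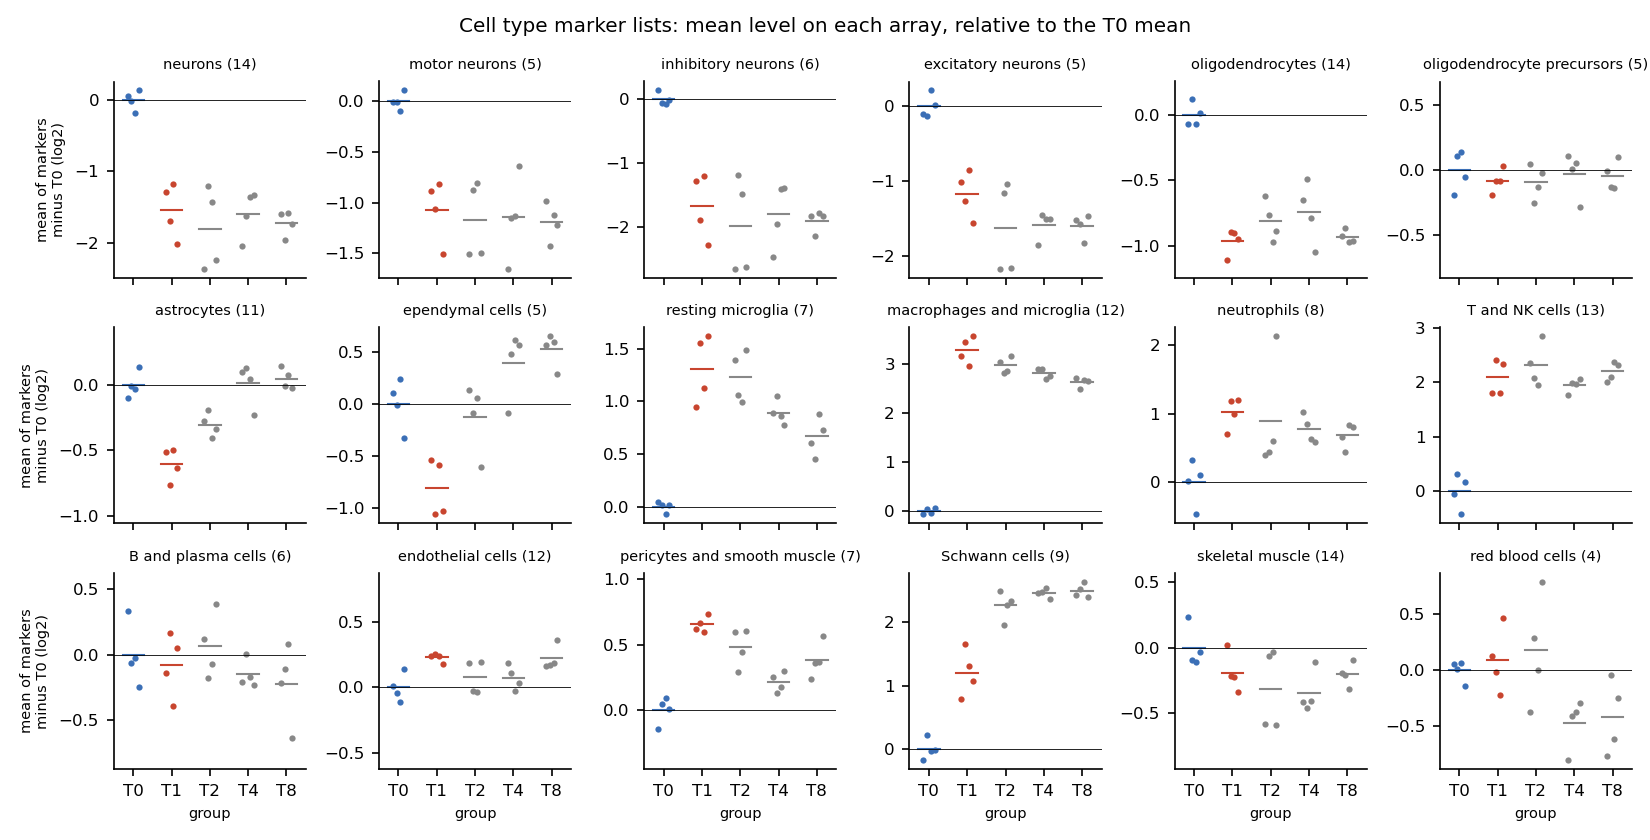
Mean log2 level of each cell type marker list on each array relative to the T0 mean of that list, in the 5 groups T0, T1, T2, T4 and T8 (points are samples, n = 4, bars are group means, list sizes in brackets, and panels differ in scale). At T1 the macrophage and microglia list stands apart above and the neuron list below T0, while the skeletal muscle, red blood cell and B cell lists overlap with T0.

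Genes that promote or restrain the growth of axons moved in both directions, 9 of 25 higher and 11 lower (median -0.29; -0.20 with 7 called higher and 6 lower in the undisputed arrays). The injury-induced factor Atf3 had levels of 8.66, 8.98, 8.995 and 8.77 in the T0 samples and 13.12, 13.85, 13.31 and 13.56 in the T1 samples (log2 difference 4.61 ± 0.23, adjusted p = 2.23e-13). Sprr1a, a small proline-rich protein of growing axons that the array lists as Sprr1al, rose by 2.80 ± 0.35, Sox11 by 0.90 ± 0.25 and Jun by 0.88 ± 0.13, and Arg1, the arginase of growing neurons and of macrophages, by 1.18 ± 0.35. Gap43, a marker of growth cones, had levels of 14.77, 14.76, 14.80 and 14.74 in the T0 samples and 14.59, 14.41, 14.84 and 14.07 in the T1 samples and was not called. The myelin inhibitors of growth fell, Omg by 1.52, Rtn4, known as Nogo, by 0.75 and Mag by 0.62, as did their receptor Rtn4r by 0.99. Axon guidance genes were 6 of 34 higher and 12 lower (median -0.29; -0.27 with 5 called higher and 7 lower in the undisputed arrays, -0.05 with normexp). The semaphorin receptors Plxnc1 (log2 difference 3.38 ± 0.48, adjusted p = 3.76e-06), Nrp1 (log2 difference 2.41 ± 0.34, adjusted p = 3.58e-06) and Plxnd1 (log2 difference 1.91 ± 0.29, adjusted p = 8.37e-06) rose, and monocytes or endothelial cells also carry them. Netrin and ephrin receptors fell, Unc5d by 2.10 and Epha4 by 1.04. Sema3a (-0.17 ± 0.17), a repellent that scar fibroblasts secrete, was not called.

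The study was built around cyclic AMP (cAMP), the second messenger that protein kinase A (PKA) and the exchange proteins EPAC1 and EPAC2 read. Of 38 genes of the pathway, 5 were called higher and 20 lower (median -0.55; -0.36 with 5 called higher and 10 lower in the undisputed arrays). Rapgef4, which encodes EPAC2 and is present on the array under a transcript identifier (ENSRNOT00000010630), had levels of 8.42, 8.12, 7.95 and 7.97 in the T0 samples and 6.15, 5.84, 6.64 and 5.68 in the T1 samples (log2 difference -2.04 ± 0.27, adjusted p = 1.56e-06). All T1 levels lay below all T0 levels, and the difference was -2.04 in the undisputed arrays. Rapgef3, which encodes EPAC1, had levels of 10.75, 11.30, 11.12 and 11.84 in the T0 samples and 11.14, 10.64, 11.15 and 11.46 in the T1 samples and was not called (log2 difference -0.16 ± 0.21, adjusted p = 0.587). Among PKA subunits, the neuronal regulatory subunit Prkar1b fell most (log2 difference -1.57 ± 0.37, adjusted p = 0.0011), the catalytic subunits Prkacb and Prkaca fell by 0.98 and 0.70, and Prkar1a (-0.01 ± 0.14), Prkar2a (0.39 ± 0.24) and Prkar2b (0.07 ± 0.17) were not called. Of the adenylyl cyclases, which make cAMP, the neuronal Adcy2, Adcy5 and Adcy8 fell by 1.31, 1.38 and 1.37, while Adcy4, of endothelium, had levels of 6.23, 6.92, 6.42 and 7.50 in the T0 samples and 9.58, 10.25, 9.48 and 10.44 in the T1 samples (log2 difference 3.17 ± 0.43, adjusted p = 1.90e-06) and Adcy7, of leukocytes, rose by 1.30 ± 0.18. Adcy1 had levels of 5.02, 4.75, 5.38 and 5.68 in the T0 samples and 4.77, 4.38, 4.40 and 4.33 in the T1 samples, which overlapped, and was called lower by a narrow margin (log2 difference -0.74 ± 0.29, adjusted p = 0.0458). Rap1b, a small GTPase that EPAC activates, rose by 1.17 ± 0.14, whereas its close relative Rap1a fell by 0.48. Camk4, a kinase of neuronal nuclei, fell by 1.73. Creb1, the transcription factor downstream of PKA, rose by 0.58 ± 0.12. Neuronal markers moved with this list, and their part in it was not tested.

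Respiratory chain genes, which serve the supply of energy, changed little each. Of 42 respiratory chain genes, 35 were called lower and 0 higher (median -0.52; -0.51 with 23 called lower in the undisputed arrays). The complex I subunit Ndufs4 had levels of 9.74, 9.45, 9.77 and 9.35 in the T0 samples and 8.42, 8.24, 8.34 and 8.23 in the T1 samples (log2 difference -1.27 ± 0.13, adjusted p = 2.02e-08), and Ndufa8 fell by 1.18. Glycolysis genes were 5 of 23 higher and 10 lower, with a median of -0.22 whose sign was opposite in the undisputed (0.08) and the other arrays (-0.38). The isoforms parted: the hexokinases Hk3 and Hk2 rose by 7.35 and 2.40 while Hk1 fell by 0.48, and the lactate dehydrogenase Ldha rose by 2.06 ± 0.18 while Ldhb fell by 0.94. The monocarboxylate transporter Slc16a3, which exports lactate, rose by 3.18 ± 0.53, and the muscle-type phosphofructokinase Pfkm, with levels of 15.46, 15.27, 15.41 and 15.46 in the T0 samples and 14.27, 13.70, 14.20 and 13.70 in the T1 samples, fell (log2 difference -1.43 ± 0.16, adjusted p = 1.39e-07). Ribosomal protein genes were 32 of 47 higher and 0 lower, by a median of only 0.42 (0.45 with 26 called higher in the undisputed arrays). Rplp0, listed as Arbp, rose most, by 1.31 ± 0.17, followed by Rps15 (0.94 ± 0.12), Rpl3 (0.93 ± 0.13) and Rps4x (0.81 ± 0.10).

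Blood that leaks into the cord leaves heme and iron, and 8 of 15 genes of their handling were called higher and 0 lower (median 1.23; 1.30 with 7 called higher in the undisputed arrays, 0.39 with normexp). The heme oxygenase Hmox1 had levels of 10.36, 10.26, 10.16 and 10.46 in the T0 samples and 15.04, 14.37, 14.99 and 14.56 in the T1 samples (log2 difference 4.43 ± 0.27, adjusted p = 4.79e-12). The scavenger receptor for haemoglobin Cd163 rose by 3.47 ± 0.67 (well above background on 1 of the 4 T0 arrays), the lysosomal metal transporter Slc11a1 by 2.91 ± 0.26 and the haemoglobin-binding haptoglobin Hp by 2.67 ± 0.27. Ferritin light chain, Ftl, rose by 1.63 ± 0.14, and the heavy chain, Fth1 (0.07 ± 0.13), and the transferrin receptor Tfrc (0.01 ± 0.18) were not called. Stress genes were 11 of 28 higher and 4 lower (median 0.32; 0.34 with 9 called higher and 3 lower in the undisputed arrays). After Atf3 and Egr2, the AP-1 member Fosl1 rose most (log2 difference 2.49 ± 0.25, adjusted p = 2.88e-08), and Fos, the marker of active cells, rose by 1.24 ± 0.19. The synaptic immediate early gene Arc, with levels of 10.40, 10.28, 10.75 and 10.65 in the T0 samples and 8.61, 7.84, 8.56 and 7.40 in the T1 samples, fell (log2 difference -2.42 ± 0.28, adjusted p = 2.57e-07).

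**Figure D4:**
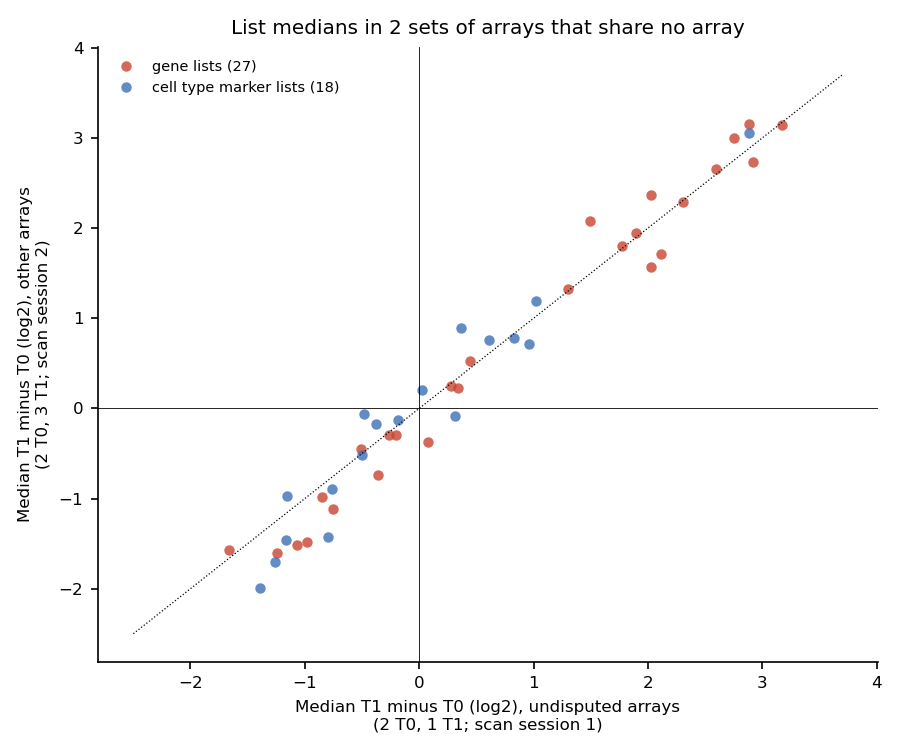
Median difference T1 minus T0 (log2) of the 45 lists in the undisputed arrays (2 T0 and 1 T1, scan session 1, horizontal) against that in the other arrays (2 T0 and 3 T1, scan session 2, vertical), with the line of equality dotted. Of the 45 lists, 43 have the same sign in both sets, and the endothelial and glycolysis lists do not.

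Across the 45 lists, 861 distinct genes were measured, of which 387 were called higher and 277 lower. The list medians had the same sign in both scan sessions for 43 of 45, and on all 3 slides that carried arrays of both groups for 40 of 45. These sets of arrays are small, with 1 T1 array in the undisputed set.

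To find which levels were highest or lowest in the first week, T1 was also compared with T2, T4 and T8 in the same fit. The groups with cell transplants were not compared with T1 here. Between T1 and T2, 525 features were called (236 higher and 289 lower at T1), between T1 and T4 2181 (1047 and 1134), and between T1 and T8 3501 (1568 and 1933). Features called in the same direction against T0, T2, T4 and T8 numbered 190 higher at T1 (0.536% of the array) and 123 lower (0.347%). The smallest of the 4 differences had a median of 0.91 among the first and 0.60 among the second. These comparisons share the T1 samples, so that a single T1 sample enters all 4 of them, and the total of 313 became 144 over the undisputed arrays of the series. Without T1 sample 1, 2, 3 or 4, it was 192, 135, 475 or 171. Of 23 such genes that are named, 5 were still called against all 4 groups over the undisputed arrays and 18 were not, all in the same direction.

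Of the genes named as highest at T1, Trem1, an amplifier of inflammation on neutrophils and monocytes, was at least 82.5-fold higher (adjusted p = 6.13e-14) at T1 than at T0 and had group means of 5.82, 4.69 and 4.22 at T2, T4 and T8. F13a1, the subunit of the clotting factor that macrophages carry (log2 difference 4.70 ± 0.50, adjusted p = 5.54e-08, well above background on 1 of the 4 T0 arrays), Srpx2, a ligand of the urokinase receptor, at least 47.1-fold higher (adjusted p = 1.85e-12), and the secreted protein gene Reg1a, at least 5.11-fold higher (adjusted p = 2.14e-07), had the same course. Adam8, a protease of leukocytes, was well above background in all T0 samples and had levels of 7.68, 8.45, 7.97 and 8.91 in the T0 samples and 12.35, 12.32, 12.59 and 12.21 in the T1 samples (log2 difference 4.12 ± 0.39, adjusted p = 8.93e-09), with group means of 10.16, 9.31 and 8.83 at T2, T4 and T8.

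The genes named as lowest at T1 had smaller differences. Ptgds, the prostaglandin D synthase of meninges and oligodendrocytes, had levels of 16.45, 16.12, 16.61 and 16.23 in the T0 samples and 15.05, 14.92, 15.45 and 14.75 in the T1 samples (log2 difference -1.31 ± 0.21, adjusted p = 1.74e-05) and group means of 16.29, 16.93 and 17.80 at T2, T4 and T8, the last above the T0 mean of 16.35. Capsl (-1.19), Igsf1 (-1.07), the fatty acid hydroxylase Cyp4f1 (-1.02) and Pax4 (-1.64) were also lower. Cela3b, a pancreatic-type elastase (log2 difference -1.32 ± 0.42, adjusted p = 0.0121), had group means of 9.26, 9.85 and 10.80 at T2, T4 and T8 and lost its call against T0 without T0 sample 3 (adjusted p = 0.0507).

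Among the lists, 13 of the 38 cell cycle genes were called higher at T1 than at each of T0, T2, T4 and T8, Ccnb2, Ccna2 and Mki67 among them. Ccnb2 had group means of 8.93, 8.00 and 7.43 at T2, T4 and T8, against 9.93 at T1 and 5.66 at T0. Over the 861 genes of all lists, 33 were higher at T1 than in every other of these groups (3.83%, against 0.536% of all features). Another 2 were lower (0.232%, against 0.347%). Of the 33, 20 were no cell cycle genes. These included Hmox1 (group means 13.28, 12.97 and 12.71 at T2, T4 and T8) and Hp (8.96, 8.27 and 8.23 at T2, T4 and T8), the latter at T4 and T8 close to its T0 mean of 8.20. Postn (group means 9.18, 7.21 and 6.56 at T2, T4 and T8), Col8a1 (10.17, 8.74 and 9.50 at T2, T4 and T8) and Ldha (11.80, 11.79 and 11.74 at T2, T4 and T8) had the same pattern, as did C1qc (13.51, 13.01 and 12.79 at T2, T4 and T8). With slide as a fixed block, and likewise with the replicate number as a block, Mki67 (adjusted p = 0.0600 and 0.0727, the highest of the 4), Ccna2 (0.0553 and 0.0638) and Postn (0.0726 and 0.0626) were no longer called against all 4 groups, nor was Cela3b (0.0567 and 0.0501). Of the 23 named genes, 8, 9, 1 and 7 lost this call without T1 sample 1, 2, 3 and 4 in turn. In the arrays of the second scan session, 19 of the 23 lost it. The 2 list genes lower at T1 were Aldh1l1 and Slc16a1, a carrier of lactate (-0.43).

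**Figure D5:**
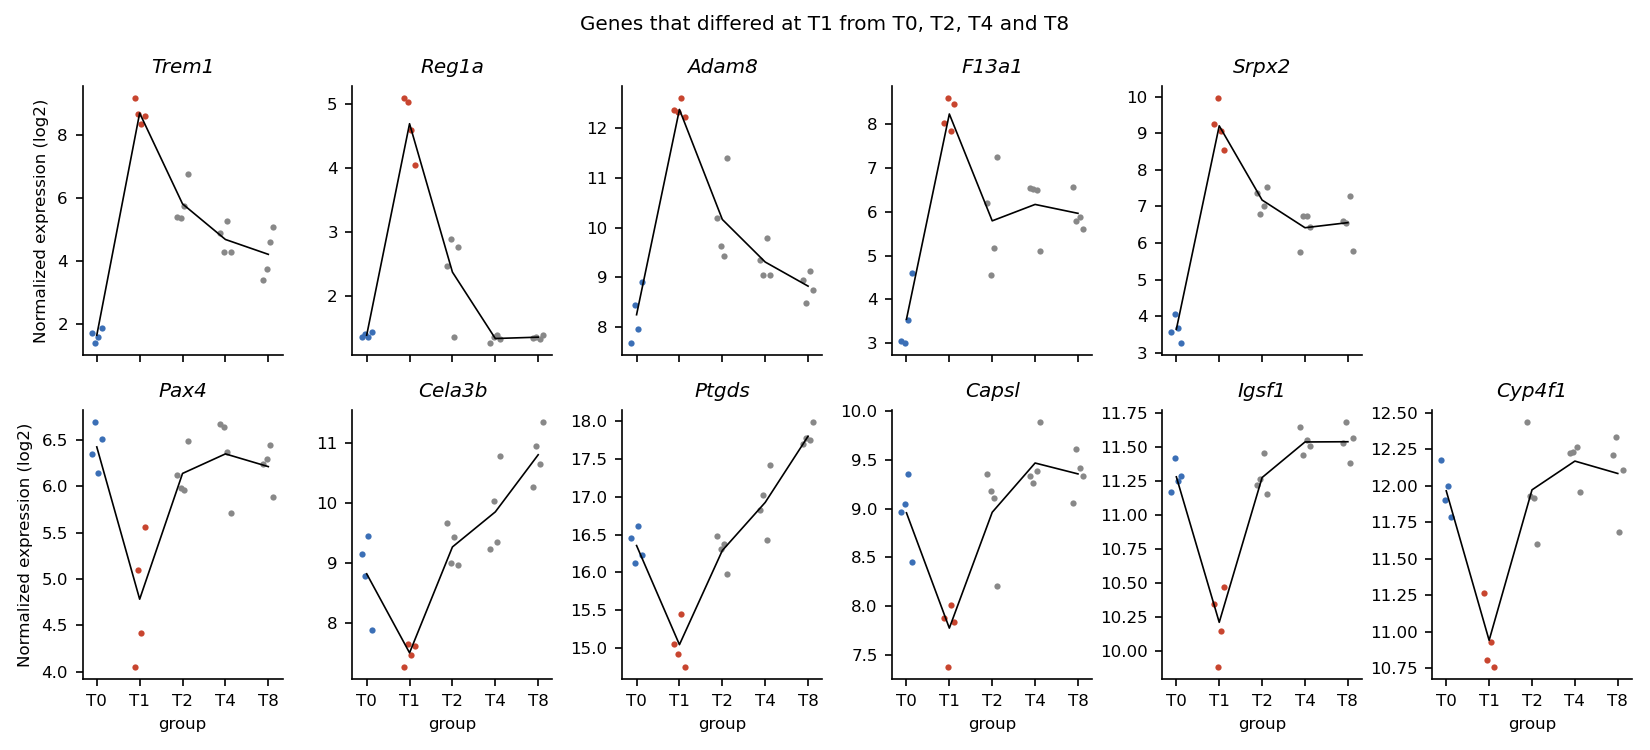
Normalized log2 level of each sample (points, n = 4 per group) and group means (line) over T0, T1, T2, T4 and T8 for 5 genes higher (top) and 6 lower (bottom) at T1 than in every other of these groups, selected for the largest smallest difference. Trem1 and Adam8 peak at T1, and Ptgds and Cela3b have their lowest mean there and rise above T0 by T8.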

How the data were processed

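RNA of 1.5 cm cord segments was hybridised to single-colour arrays of 45018 spots. According to the labels and methods, the authors read background-corrected intensity values with Agilent Feature Extraction and deposited them for each array without normalization between arrays. The deposited value table holds log2 values that the authors quantile normalized between arrays. It was joined to the scanner output by spot number, 1639 control spots were left out, and spots were averaged by probe (41012) and probes by gene name (35469 features). Names in the array annotation can be old, and 16815 of the 20503 probes with a RefSeq accession matched a current gene.

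T1 minus T0 was tested with limma 3.58.1 in R 4.3.3 (means of all 7 groups, 28 arrays, empirical Bayes, Benjamini-Hochberg adjusted p under 0.05), which also gave T1 against T2, T4 and T8. Precision is set by there being 4 arrays, from different animals, in each group. Well above background is the scanner's own mark. Bounds of a fold compared the mean of the group well above background with that of the other group. In the latter, each level entered as measured or as that of the dimmest probe marked so on the array, whichever was higher. The fit was tested on simulated data.

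The comparison and the 45 gene lists (890 of 921 members found) were chosen with earlier results of these data known, and the lists carry no test of their own. Genes named were the 12 largest rises and falls, the 5 largest bounds, the 6 most apart from all other groups in each direction, up to 4 members per list and the cAMP genes; further list members are named for their known roles, chosen after their values were seen. Each count was recomputed with other arrays, scalings, normexp background correction (on the median signals), probe rules, blocks and with each sample left out. Motifs, each of 6 letters or fewer (one of them repeated after 2 bases), were searched in RefSeq promoters of GRCr8. Python 3.11.15 with pandas 2.3.3 and matplotlib 3.10.9 drew the summaries. The results of some genes are not reported here.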

Additional observations from a re-analysis of the deposited data

Results flagged for a closer look

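In 18 of 462 sets of 4 values examined (a gene or list in T0 or in T1), 1 sample lay far from the other 3, with a gap past the critical value of Dixon's test. Chance alone gives about 1 in 20 such sets. The share of the range taken by the gap is given for each. Among T0 samples, the highest stood apart for Msr1 (0.934), S100a9 (0.971), Mmp8 (0.895) and Tnc (0.845), all in sample 2, and for Anxa1 (0.872) in sample 1. The lowest T0 sample stood apart for Tnnt3 (0.848) and Cxcl1 (0.957) in sample 3, for Fcgr2a (0.842) and RT1-Bb (0.905) in sample 1 and for Kcna4 (0.936) in sample 4. Among T1 samples, the highest stood apart for Col3a1 (0.951), Tm7sf2 (0.933) and Mmp7 (0.916) in sample 2 and for Aldh1l1 (0.918) in sample 4. The lowest T1 sample stood apart for Hk3 (0.951) in sample 3. The mean level at T1 stood apart for the endothelial list (0.831, sample 4 lowest), the proteoglycan and tenascin list (0.855, sample 3 lowest) and the glycolysis list (0.911, sample 1 highest).

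For 23 named genes, the difference from T0 at T1 was unlike that at each of T2, T4 and T8 by the test of T1 against each of these groups. The smallest of the 3 differences, on the log2 scale, is given for each. Higher at T1 were Trem1 (2.888), Reg1a (2.323), Adam8 (2.205), F13a1 (2.069), Srpx2 (2.028), Hp (1.907), Postn (1.728), Col8a1 (1.681), Hmox1 (1.456), Ccna2 (1.215), Ldha (1.041), RGD1566252, which is Mki67 (1.012), Ccnb2 (0.999), C1qc (0.721) and Esam (0.714). Lower at T1 were Prx (-2.265), Cela3b (-1.766), Pax4 (-1.355), Ptgds (-1.248), Capsl (-1.191), Igsf1 (-1.066), Cyp4f1 (-1.03) and Aldh1l1 (-0.831). These comparisons share the T1 samples. Trem1, Reg1a, Adam8, F13a1, Srpx2, Pax4, Cela3b, Ptgds, Capsl, Igsf1 and Cyp4f1 had been named because they passed these comparisons. Their flags are therefore no separate finding.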

How the results depend on the processing

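The 15657 calls between T1 and T0 were 13758 to 15464 when 1 sample was left out. They were 7354 with a change of at least 1 asked for (3612 higher and 3742 lower), 9902 in session 1 arrays (5311 lower), and 5764 were lower without the disputed arrays of the series. Calls were 0 in either direction with each scanner output under its deposited sample. The 313 features apart from all other groups changed most: 481 with the 20 time course arrays, 488 with scan session as a block, 144 without the disputed arrays, 88 with a change of at least 1, 52 and 55 in session 1 and session 2 arrays, 0 with the scanner output under its deposited sample, and 192, 135, 475 and 171 without T1 sample 1, 2, 3 and 4, a range of 135 to 475. The cause was not tested, except that fewer arrays enter the session fits.

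With the scanner output under its deposited sample, differences of T1 from T0 changed sign for Cela3b (0.124), Aqp4 (0.051), RGD1563109 (0.275), Ccdc153 (0.018), Igj (-0.127), Ms4a1 (0.056), Tagln (-0.049), Hbb (-0.081), Epb4.2 (0.070) and Il1r2 (-0.269). The smallest of the 4 differences changed sign there for Trem1 (-0.819), Adam8 (-0.267), F13a1 (-0.475), Srpx2 (-0.506), Cela3b (0.124), Ptgds (0.030), Cyp4f1 (0.124), Esam (-0.107), C1qc (-0.872), RGD1566252 (-0.942), Ccnb2 (-0.901), Ccna2 (-1.030), Postn (-1.333), Col8a1 (-0.669), Ldha (-0.059), Hmox1 (-0.598) and Hp (-0.079).

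With the replicate number as a block, 15337 features were called, and none of the 192 named genes changed its direction or its side of the threshold against T0, while 4 of 23 named genes apart from all groups lost a call. Deviations of same-numbered T0 and T1 samples correlated at 0.257, 0.0854, -0.0544 and 0.225, and those of differently numbered samples at -0.326 to 0.326. These values do not settle whether the numbers pair the samples. T0 and T1 samples on the same slide correlated at 0.326, 0.147 and 0.215. Slide as a fixed block gave 16888 calls and 403 features apart from all groups, with none of the 192 named genes changed against T0 and the calls of the 4 genes lost as under the replicate block. Scaling by the 75th percentile gave 16534 (6372 higher, 10162 lower), with a median over all features of -0.272. Signal near the background limits dim genes, and 5459 features were not well above background on any T0 or T1 array. Without the disputed arrays, 34 of the 192 named genes were no longer called, in the same direction. With normexp, 24 of the 45 list medians moved by more than the spread between samples.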
